A study of Mus musculus with 6 samples.

Results

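The genes described here are 9 markers of B cells and of antigen presentation on MHC class II, out of 43629 genes in the count table. They were chosen by symbol: the immunoglobulin constant genes Ighm and Igkc, the B cell surface genes Ms4a1, Cd79a and Cd79b, the class II chain genes H2-Aa, H2-Ab1 and H2-Eb1, and the invariant chain gene Cd74. All 9 had a row in the table. The study took T cells from pooled subcutaneous B16-Ova tumours (a mouse melanoma line that carries ovalbumin) of C57BL/6 mice on day 14 and sorted them by flow cytometry, as CD8+ and T cell receptor positive cells, into L-Pha low and L-Pha high fractions. L-Pha is a plant lectin that binds branched N-glycans. Each fraction gave 3 libraries for 3′ mRNA sequencing, numbered 1 to 3, and all 6 share the mouse strain, tumour and day. The labels do not say whether the libraries of a fraction came from separate pools or animals, so the p-values measure only the spread between libraries, which may be technical.

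B cells carry an antigen receptor made of immunoglobulin heavy and light chains, and the proteins CD79A and CD79B transmit its signal. Class II molecules are pairs of an alpha and a beta chain that present peptides to CD4+ T cells. They assemble on the invariant chain CD74, and the regulator CIITA switches their genes on in B cells, dendritic cells and macrophages. Mouse CD8+ T cells are not known for either function. In such bulk libraries fewer cells of a type and less RNA per cell cannot be told apart.

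The libraries held 2610729 to 3521117 counts. Levels are given as raw counts or as CPM, the usual depth-normalised count, scaled by edgeR's TMM method. T cell identity genes (16 genes, such as Cd8a and Cd3e) summed to 1062, 1183 and 394 CPM in L-Pha low 1, 2 and 3, and to 830, 974 and 538 CPM in L-Pha high 1, 2 and 3. Both libraries numbered 3 were thus the lowest in T cell transcripts. The same libraries had the highest melanoma marker sums, at 15938 and 16777 CPM against 10097 to 14022 CPM in the other 4, but most of each sum came from 1 gene, Dct. Without Dct, a split made after its values were seen, the other 7 markers summed to 2127, 2543 and 2450 CPM in L-Pha low 1, 2 and 3, and to 2216, 1941 and 2649 CPM in L-Pha high 1, 2 and 3. Of 15 tested T cell genes 6 had higher and 9 lower point values in L-Pha high (median log2 fold change -0.13, and -0.49 to 0.17 with 1 library left out), and of 8 melanoma genes 3 were higher and 5 lower (median -0.04), where 49.3% of all tested genes were higher. edgeR, DESeq2 and limma-voom called 0 genes of either list, and 0 were at an unadjusted p under 0.05 in any of the 3.

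The B cell genes Ighm, Ms4a1, Cd79a and Cd79b were highest in 1 library, L-Pha low 3, and were low in L-Pha high 3. The 3 class II chain genes varied less between libraries and were lowest in L-Pha low 1, the lowest library for 5 of the 6 tested members and for 20.4% of all tested genes. Of the 6 members that passed edgeR's count filter, 0 passed the adjusted threshold of 0.05 between L-Pha high and L-Pha low, where 0.00894% of the 11183 tested genes did. At an unadjusted p under 0.05 there was 1 member (edgeR), against 3.78% of all tested genes. DESeq2 called 0 of 9 members, with 1 at an unadjusted p under 0.05, and limma-voom called 0 of 6, with 0; they called 0.196% and 0.0% of all the genes they tested. In 0 of the 6 did the groups stand apart without overlap, as they did in 8.41% of all tested genes. The remaining members, Igkc, Cd79a and Cd79b, were below the count filter.

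**Figure D1:**
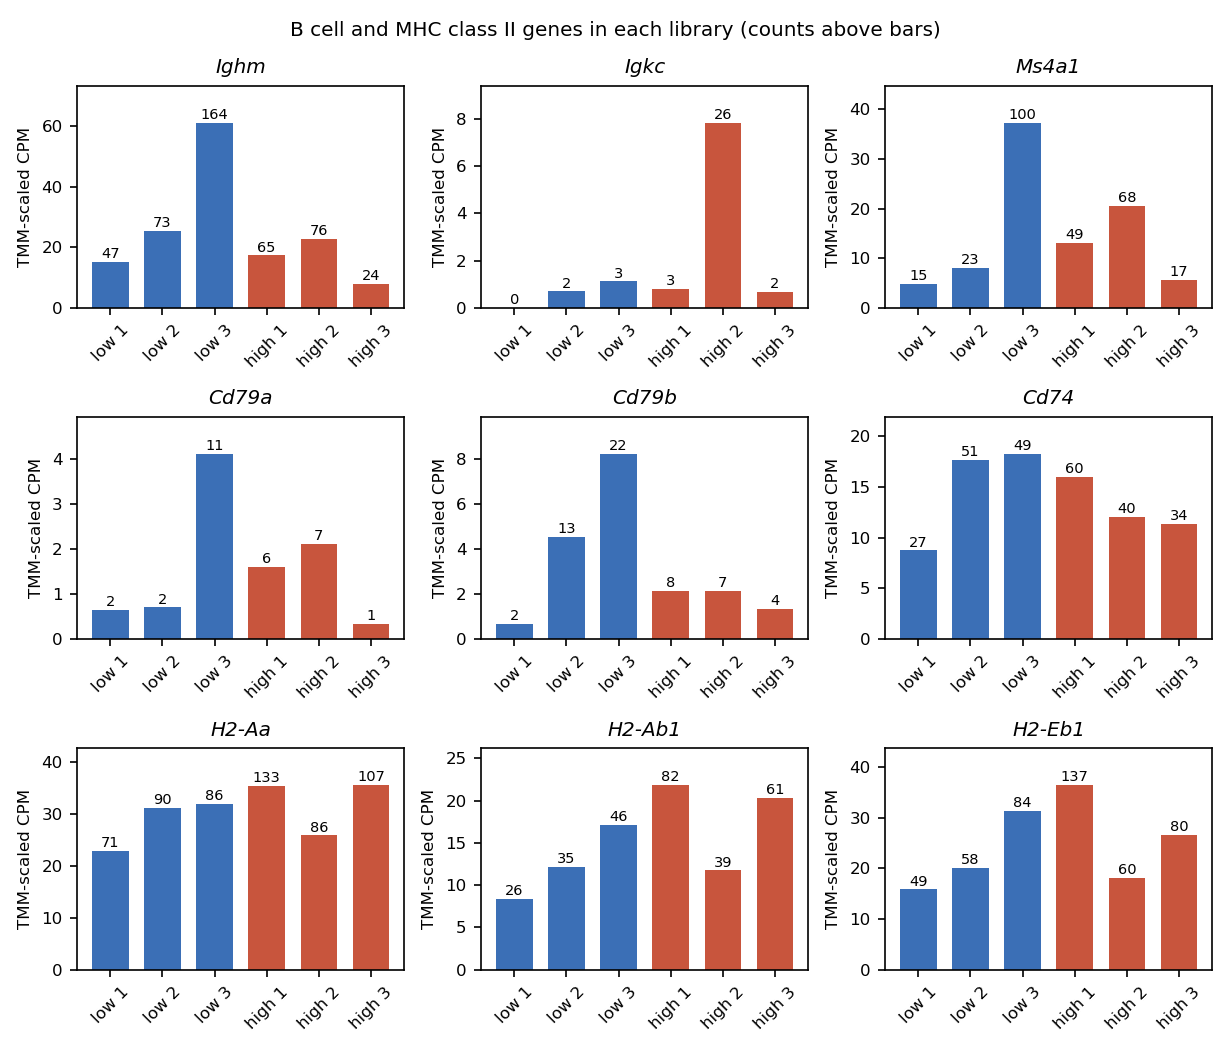
Bars give the TMM-scaled CPM of each of the 9 genes in each library (blue, L-Pha low; red, L-Pha high), with the raw count above each bar and a separate linear axis from 0 for each gene. Ighm, Ms4a1, Cd79a and Cd79b peak in L-Pha low 3, with 164, 100, 11 and 22 counts, and Igkc peaks in L-Pha high 2 with 26.

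Ighm encodes the constant part of the IgM heavy chain (ENSMUSG00000076617, GRCm38 chromosome 12, 113418558 to 113422730, minus strand). It stood at 15.2, 25.4 and 61.1 CPM in L-Pha low 1, 2 and 3, and at 17.3, 22.9 and 7.995 CPM in L-Pha high 1, 2 and 3. The highest and lowest libraries were thus the 2 numbered 3, while the other 4 lay between 15.2 and 25.4 CPM. L-Pha high averaged 16.1 ± 7.53 CPM, against 33.9 ± 24.1 CPM for L-Pha low (SD, n = 3 each). The log2 fold change was -1.06 (SE 0.469, 95% interval -2.07 to -0.06), with an unadjusted p of 0.0397 and an adjusted p of 1.00 by edgeR. Ighm was the member with the unadjusted p under 0.05. Leaving out L-Pha low 3 brought it to -0.32, and leaving out both libraries numbered 3 brought it to -0.01.

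Ms4a1 encodes CD20, a B cell surface protein (ENSMUSG00000024673, chromosome 19, 11249675 to 11266241, minus strand). Its levels were 4.85, 7.99 and 37.3 CPM in L-Pha low 1, 2 and 3, and 13.1, 20.5 and 5.66 CPM in L-Pha high 1, 2 and 3. Among the libraries numbered 1 and 2, L-Pha high was above L-Pha low, by 2.69-fold and 2.56-fold. Among those numbered 3, L-Pha low was 6.58-fold above L-Pha high. Over all 6 libraries the log2 fold change was -0.33 (SE 0.626, 95% interval -1.68 to 1.02, edgeR adjusted p = 1.00). It was 1.04 without L-Pha low 3 (edgeR adjusted p = 0.462) and 1.38 without both libraries numbered 3, a setting chosen after seeing the data (edgeR adjusted p = 0.652). It was 0.01 without L-Pha high 3, so the direction of Ms4a1 rests on single libraries.

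Cd79a and Cd79b encode the signalling chains of the B cell receptor. Cd79b (ENSMUSG00000040592, chromosome 11, 106311341 to 106314762, minus strand) had 2, 13 and 22 counts in L-Pha low 1, 2 and 3 and 8, 7 and 4 counts in L-Pha high 1, 2 and 3. The summed counts gave a ratio of 0.441 for L-Pha high over L-Pha low, scaled for library size, with an exact 95% interval of 0.240 to 0.787 that covers counting error only. On the log2 scale the ratio of mean CPM was -1.26, and -0.47 when L-Pha low 3 was left out. Cd79a (ENSMUSG00000003379, chromosome 7, 24897381 to 24902197, plus strand) had 2, 2 and 11 counts in the L-Pha low libraries and 6, 7 and 1 in the L-Pha high ones. Its log2 ratio of mean CPM was -0.43 with all libraries, and 1.01 once L-Pha low 3 was left out. Cd79b and Cd79a thus had the same highest library as Ighm and Ms4a1, at counts too low for the test.

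Igkc, the constant gene of the kappa light chain (ENSMUSG00000076609, chromosome 6, 70726435 to 70726757, plus strand), had another pattern. It had 0, 2 and 3 counts in L-Pha low 1, 2 and 3, where the 0 allows up to 3 counts, and 3, 26 and 2 counts in L-Pha high 1, 2 and 3. Of its 36 counts 26 came from L-Pha high 2, and the log2 ratio of mean CPM was 2.36 with that library and 0.28 without it. The gene model used for counting spans 323 bases and ends 209 bases before the end of Igkc in GENCODE M21, so reads from the last bases of the transcript, where a 3′ library places them, were not counted for it.

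Many other genes of the B cell lineage were, like Ighm and Ms4a1, highest in L-Pha low 3. Of a list of 30 B cell identity genes 28 were in the table and 11 were tested; 2 had higher and 9 lower point values in L-Pha high, with a median log2 fold change of -0.39 against -0.01 over all tested genes. edgeR, DESeq2 and limma-voom each called 0 of them, with 0 at an unadjusted p under 0.05. The highest value was in L-Pha low 3 for 8 of the 11, a count made after the pattern of Ighm was seen, where that library was the highest for 17.9% of all tested genes. Cd37 and Ltb were instead highest in L-Pha low 2, and Cd180 in L-Pha high 1. The lowest value was in L-Pha high 3 for 3 of the 11, as for Ighm, and in L-Pha low 1 for 5, as for Ms4a1. Those libraries were the lowest for 14.2% and 20.4% of all tested genes. The summed level of the whole list was 109, 160 and 301 CPM in L-Pha low 1, 2 and 3 and 125, 177 and 80.6 CPM in L-Pha high 1, 2 and 3. With L-Pha low 3 left out, the median log2 fold change was 0.23, and with both libraries numbered 3 left out it was 0.31. The part of B cell RNA in the differences between libraries was not tested.

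Ly6d, a surface gene of early B lineage cells, had 3.56, 15.3 and 36.9 CPM in L-Pha low and 10.1, 19.3 and 2.33 CPM in L-Pha high (libraries 1, 2 and 3). L-Pha low 3 was 15.8-fold above L-Pha high 3, and the log2 fold change between groups was -0.79 (SE 0.717). Spib, a transcription factor of B cells and plasmacytoid dendritic cells, had 0.971, 10.4 and 30.2 CPM against 6.39, 13.6 and 4.00 CPM. Cd72, a B cell surface receptor, ran from 8.09 CPM in L-Pha low 1 to 30.2 CPM in L-Pha low 3, with a group difference of -0.84 on the log2 scale (SE 0.420), while Ltb, a cytokine gene that T cells also express, was highest in L-Pha low 2 at 48.6 CPM (group difference -0.67 on the log2 scale, SE 0.336). These were the list members with the smallest p (edgeR, adjusted p = 1.00 for each). The 17 list members below the count filter together had 48, 67 and 164 counts in L-Pha low 1, 2 and 3 and 55, 97 and 30 counts in L-Pha high 1, 2 and 3. Their sum, though not each of them, was highest in L-Pha low 3 and lowest in L-Pha high 3. Among them Pax5, the transcription factor that maintains B cell identity, had 0 counts in all 6 libraries, but its gene model ends 6388 bases before the end of Pax5 in GENCODE M21.

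**Figure D2:**
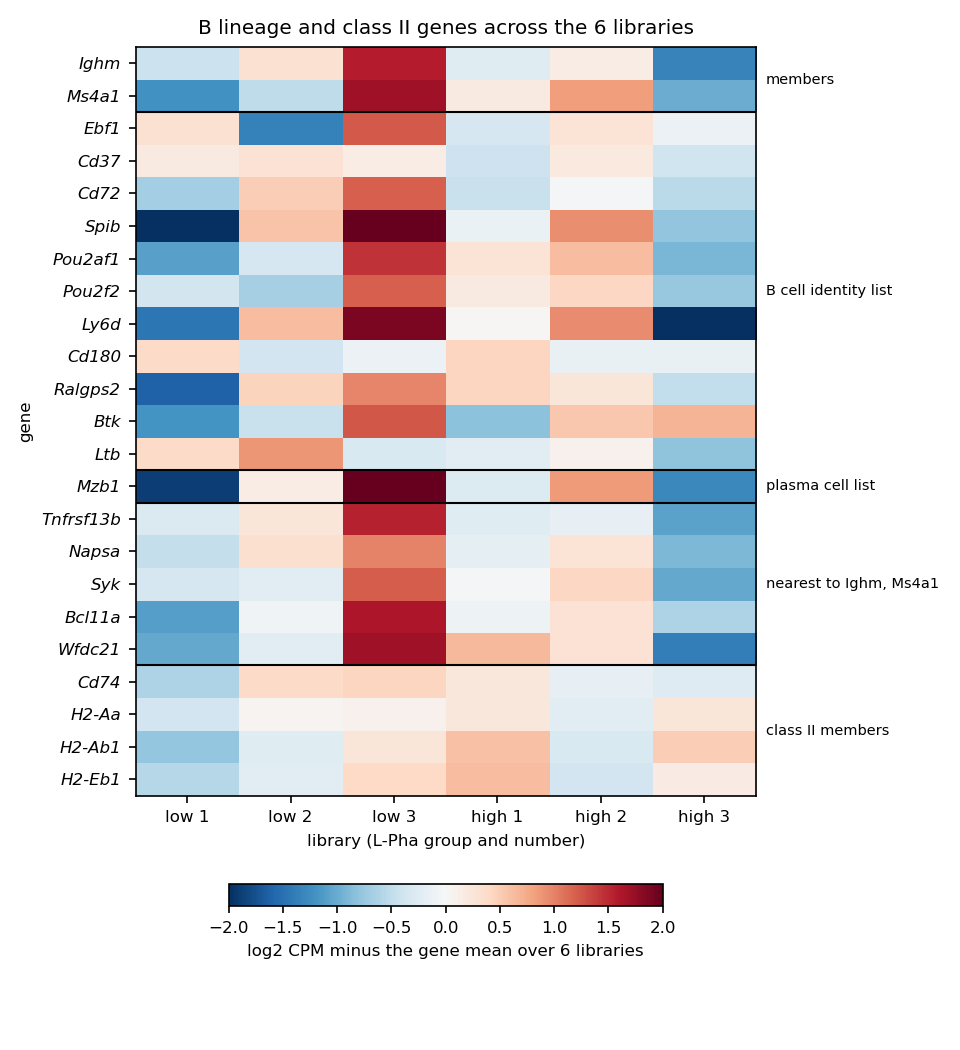
Each row is a gene and each column a library, and the colour is the log2 CPM minus the mean of that gene over the 6 libraries (red above, blue below, scale clipped at 2 either way). Ighm, Ms4a1 and most B cell identity genes are reddest in L-Pha low 3, whereas the 4 class II rows vary less. The genes nearest to Ighm and Ms4a1 are reddest there too, but were picked for their likeness over these 6 libraries.

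The likeness of patterns was measured as the root mean square difference of centred log2 CPM over the 6 libraries, against 9852 other tested genes. Closest to Ighm was Tnfrsf13b, which encodes TACI, a receptor for B cell survival factors, at a difference of 0.18 where the spread of Ighm itself was 0.88. Tnfrsf13b had 3.56, 5.21 and 13.0 CPM in L-Pha low and 3.73, 3.92 and 2.00 CPM in L-Pha high. Napsa (0.30) and Syk (0.32), a kinase that acts downstream of the B cell receptor, were next. Closest to Ms4a1 was Pou2af1, a transcriptional co-activator of B cells, at 0.17 where the spread of Ms4a1 was 1.02. Pou2af1 had 3.24, 5.56 and 19.4 CPM in L-Pha low and 8.52, 10.8 and 3.66 CPM in L-Pha high. Bcl11a (0.35), a transcription factor of lymphoid development, and Wfdc21 (0.36) followed. Ighm and Ms4a1 differed from each other by 0.58, since Ms4a1 was lower in L-Pha low 1 and 2 relative to its other libraries.

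Markers of antibody-secreting cells were split in direction. Of 16 genes of a plasma cell and switched immunoglobulin list 6 were tested, 2 with higher and 4 with lower point values and a median log2 fold change of -0.25, and edgeR, DESeq2 and limma-voom called 0. Mzb1, a chaperone gene of B and plasma cells, had 2.59, 11.1 and 55.2 CPM in L-Pha low 1, 2 and 3 and 8.26, 18.1 and 4.00 CPM in L-Pha high 1, 2 and 3 (log2 fold change -1.16, SE 0.888). L-Pha low 3 was thus 13.8-fold above L-Pha high 3 for Mzb1. The kinase gene Pim2, which T cells express as well, had the smallest p, at 11.4 ± 4.04 against 19.7 ± 2.94 CPM (log2 fold change -0.79, SE 0.332, edgeR adjusted p = 1.00); it was the 1 list member at an unadjusted p under 0.05 by edgeR, where limma-voom had 1 such member and DESeq2 0. Over all tested genes 3.78% were at an unadjusted p under 0.05 by edgeR. Irf4 and Fkbp11 had log2 fold changes of -0.35 and -0.14. The 2 with higher point values, Sdc1 and Xbp1, were at 0.07 and 0.05, and Xbp1 was lowest in L-Pha low 3. Of the 6 tested list genes 1, Mzb1, was highest in L-Pha low 3, as were 17.9% of all tested genes. Jchain, which joins secreted IgM and IgA, had 6 counts in all, from a gene model that ends 703 bases before its end in GENCODE M21. The class-switched gene Ighg2b had 3, 7 and 37 counts in the L-Pha low libraries and 4, 18 and 3 in the L-Pha high ones. The lambda constant gene Iglc2 had 3, 6 and 17 against 6, 8 and 1, and Ighd, of IgD, had 3, 4 and 11 against 1, 4 and 1. Of 281 immunoglobulin variable segments 7 had any count, 16 counts in all. In 3′ libraries reads of a rearranged immunoglobulin transcript fall on its constant gene.

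The class II chain genes H2-Aa, H2-Ab1 and H2-Eb1 lie side by side on chromosome 17, and their start regions carry a pair of short elements, the X box and the Y box, that CIITA and its partners use. RefSeq start windows (GRCm38.p6, 250 bases before to 50 after the start) were given for 3 members, H2-Aa, H2-Eb1 and Cd79a. They were searched on both strands for GCAAC followed after 20 to 35 bases by ATTGG, a plain form of the pair. It was found in H2-Aa and H2-Eb1, and in 0.794% of 32851 windows of all genes. The stretches below are shown because H2-Aa and H2-Eb1 are read from separate starts that share this arrangement. They read 5′ to 3′ along the gene, upstream of the start, with the core of the X box and of the Y box in capitals.
H2-Aa (chr17:34287852-34287919, minus strand): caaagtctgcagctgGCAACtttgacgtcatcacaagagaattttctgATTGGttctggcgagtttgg
H2-Eb1 (chr17:34305761-34305827, plus strand): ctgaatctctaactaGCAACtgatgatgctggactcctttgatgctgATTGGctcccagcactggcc

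The boxes lay 28 bases apart in H2-Aa and 27 in H2-Eb1, with the X box starting 81 and 91 bases before the start. Among 17 genes of a wider class II pathway list with a window, H2-Eb2, H2-Oa and H2-Ob also held the pair. The Cd79a window held neither the octamer ATGCAAAT nor CCCNNGGG, a core of EBF1 sites; these were found in 1.74% and 13.7% of all windows. Such matches describe letters only.

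H2-Aa, the alpha chain of the I-A molecule (ENSMUSG00000036594, chromosome 17, 34282744 to 34287827, minus strand), stood at 23.0, 31.3 and 32.1 CPM in L-Pha low 1, 2 and 3 and at 35.4, 25.9 and 35.6 CPM in L-Pha high 1, 2 and 3. The groups overlapped, with L-Pha low 1 the lowest library. The log2 fold change was 0.17 (SE 0.269, 95% interval -0.41 to 0.75, edgeR adjusted p = 1.00). Its beta chain partner H2-Ab1 (ENSMUSG00000073421, 34263209 to 34269418, plus strand) had 8.41, 12.2 and 17.2 CPM in L-Pha low and 21.8, 11.8 and 20.3 CPM in L-Pha high. Here 2 of the 3 L-Pha high libraries were above all L-Pha low libraries, and L-Pha high 2 lay within their range. The means were 18.0 ± 5.44 and 12.6 ± 4.38 CPM (SD, n = 3 each; log2 fold change 0.52, SE 0.360, 95% interval -0.25 to 1.29, edgeR adjusted p = 1.00). Without L-Pha low 3 H2-Ab1 was at 0.81 on the same scale (edgeR adjusted p = 0.456).

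H2-Eb1, the beta chain of the I-E molecule (ENSMUSG00000060586, 34305877 to 34316199, plus strand), had 15.9, 20.1 and 31.3 CPM in L-Pha low and 36.5, 18.1 and 26.7 CPM in L-Pha high. Its order over the libraries was close to that of H2-Ab1, the member nearest to it in pattern at a root mean square difference of 0.17. The log2 fold change was 0.28 (SE 0.336, 95% interval -0.44 to 1.00, edgeR adjusted p = 1.00), 0.60 with L-Pha low 3 left out and -0.0014 with L-Pha high 1 left out. The model of H2-Eb1 ends 475 bases before its end in GENCODE M21. Cd74 (ENSMUSG00000024610, chromosome 18, 60803848 to 60812646, plus strand) had 8.74, 17.7 and 18.3 CPM in L-Pha low and 16.0, 12.1 and 11.3 CPM in L-Pha high. Unlike the 3 chain genes, Cd74 had a lower point value in L-Pha high (log2 fold change -0.17, SE 0.353, 95% interval -0.93 to 0.58, edgeR adjusted p = 1.00), and stood at 0.00058 with L-Pha low 3 left out. Whether Cd74 differed from the chain genes between groups was not tested. Cd74 shares exonic sequence with the microRNA gene Mir5107, where a read is counted for both.

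**Figure D3:**
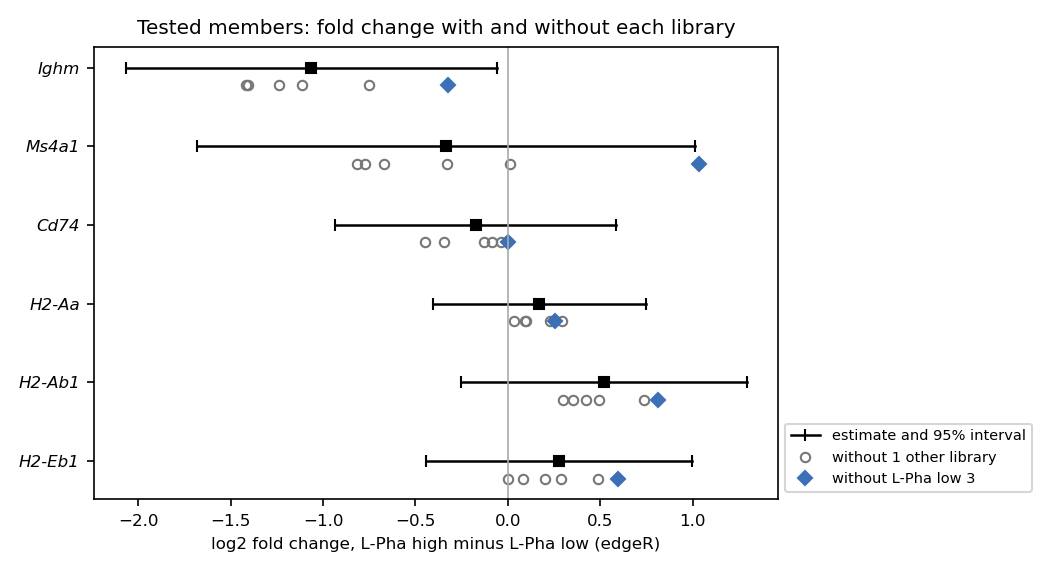
Squares give the edgeR log2 fold change (L-Pha high minus L-Pha low) of the 6 tested members with its 95% interval, and the marks under each give the value with 1 library left out (diamond, without L-Pha low 3). Ms4a1 goes from -0.33 to 1.04 without L-Pha low 3, and the intervals of all members except Ighm include 0.

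The genes most like the class II members by pattern included Unc93b1 (0.12), Ep300 (0.13) and Ncf1 (0.13) for Cd74, whose own spread was 0.38. For H2-Aa, with a spread of 0.23, they were Pcgf3 (0.04), Zswim7 (0.06) and Pigp (0.07). For H2-Ab1, with a spread of 0.48, they were Fndc3c1 (0.08), Sh3tc2 (0.13) and Ap3s1-ps2 (0.15), and for H2-Eb1, with a spread of 0.43, Ap3s1-ps2 (0.09) and Alg6 (0.14). None of these is a B cell identity gene of the list, and among the tested members the nearest to H2-Aa was H2-Eb1 (0.26) and the nearest to Cd74 was H2-Aa (0.30).

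The other genes of the class II pathway were split in direction. Of 20 symbols 19 were in the table and 13 were tested, 7 with higher and 6 with lower point values in L-Pha high and a median log2 fold change of 0.13 against -0.01 over all tested genes. That median was 0.0069 with L-Pha high 3 left out, 0.33 with L-Pha low 3 left out, -0.056 with no count filter and -0.070 with DESeq2. edgeR called 0 of them, with 0 at an unadjusted p under 0.05, DESeq2 called 0, with 1, and limma-voom called 0, with 0. The DESeq2 gene was H2-Ob, which was below edgeR's count filter and is named after its values were seen. H2-Ob, a chain of the chaperone inhibitor H2-O, had 10, 10 and 8 counts in the L-Pha low libraries and 0, 2 and 1 in the L-Pha high ones (DESeq2 log2 fold change -3.41, adjusted p = 0.771). Its groups did not overlap, which was also so for 8.41% of all tested genes. The gene model used for counting ends 8507 bases before the end of H2-Ob in GENCODE M21. Ciita had 1.62, 1.74 and 3.73 CPM in L-Pha low and 3.46, 6.03 and 3.66 CPM in L-Pha high (log2 fold change 0.90, SE 0.547, edgeR adjusted p = 1.00), from a model that ends 854 bases before the end of Ciita in GENCODE M21. Nfyc, a subunit of the factor that binds the Y box, had a log2 fold change of -0.62 (SE 0.342). The lysosomal thiol reductase gene Ifi30, which helps to unfold antigen, had -0.51 (SE 0.339), and H2-DMa, of the chaperone that loads peptide, had -0.70 (SE 0.483). Of the 13 tested genes, H2-DMa was the 1 whose groups did not overlap. It had 7.12, 6.25 and 5.22 CPM in L-Pha low and 4.79, 4.82 and 1.67 CPM in L-Pha high. Groups stood apart in this direction in 4.18% of all tested genes. H2-DMb1 ran from 20.7 CPM in L-Pha low 1 to 80.5 CPM in L-Pha low 3, and it shares sequence with H2-DMb2, so both are uncertain as separate genes.

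Macrophages and dendritic cells are known for class II, and transcripts of their marker lists were counted in all libraries. Of 20 macrophage and monocyte markers 17 were tested, 14 with higher and 3 with lower point values in L-Pha high and a median log2 fold change of 0.42 (0.17 with L-Pha high 1 left out, 0.63 with L-Pha low 3 left out); in 5 the groups stood apart upwards and in 1 downwards, where 4.23% and 4.18% of all tested genes did. edgeR called 0, with 4 at an unadjusted p under 0.05, DESeq2 called 1, with 3, and limma-voom called 0, with 4. Over all tested genes 3.78% were at an unadjusted p under 0.05 by edgeR, and DESeq2 called 0.196%. Fcer1g, an Fc receptor chain, had 12.8 ± 3.09 and 6.99 ± 1.63 CPM (log2 fold change 0.87, SE 0.367), Ccr2, a monocyte chemokine receptor, 0.69 (SE 0.317), and Cx3cr1, which effector T cells also express, 0.91 (SE 0.340). Ly6c2, expressed by monocytes and by memory CD8+ T cells, went the other way at 33.6 ± 11.4 against 98.5 ± 46.0 CPM (log2 fold change -1.55, SE 0.373, edgeR adjusted p = 0.347), and was the gene DESeq2 called (DESeq2 adjusted p = 0.0208). The summed macrophage list ran from 424 CPM in L-Pha high 2 to 559 CPM in L-Pha high 1, and Csf1r, the receptor that defines macrophages, had 7 to 22 counts per library. The summed class II members likewise were highest in L-Pha high 1, at 110 CPM, but lowest in L-Pha low 1, at 56.0 CPM, where macrophage markers summed to 461 CPM. The part of macrophage RNA in the class II levels was not tested.

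Dendritic cell markers included genes that T cells or tumour cells share. Of 20 genes 9 were tested, 6 with higher and 3 with lower point values and a median log2 fold change of 0.43. edgeR, DESeq2 and limma-voom called 0, with 1 at an unadjusted p under 0.05 by each, against 3.78% of all tested genes by edgeR. That gene by edgeR was Irf8, a transcription factor of dendritic cells, B cells and activated CD8+ T cells, at 184 ± 53.0 against 114 ± 38.7 CPM (log2 fold change 0.70, SE 0.300). Clec10a had 0.69 (SE 0.441), Fscn1 0.71 (SE 0.586) and Ccr7, which naive T cells also express, -0.38 (SE 0.349). The defining gene Flt3 had 0, 0 and 1 counts in L-Pha low and 0, 1 and 2 counts in L-Pha high, where each 0 allows up to 3 counts. The list median was -0.025 with no count filter, where genes with few counts enter.

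**Figure D4:**
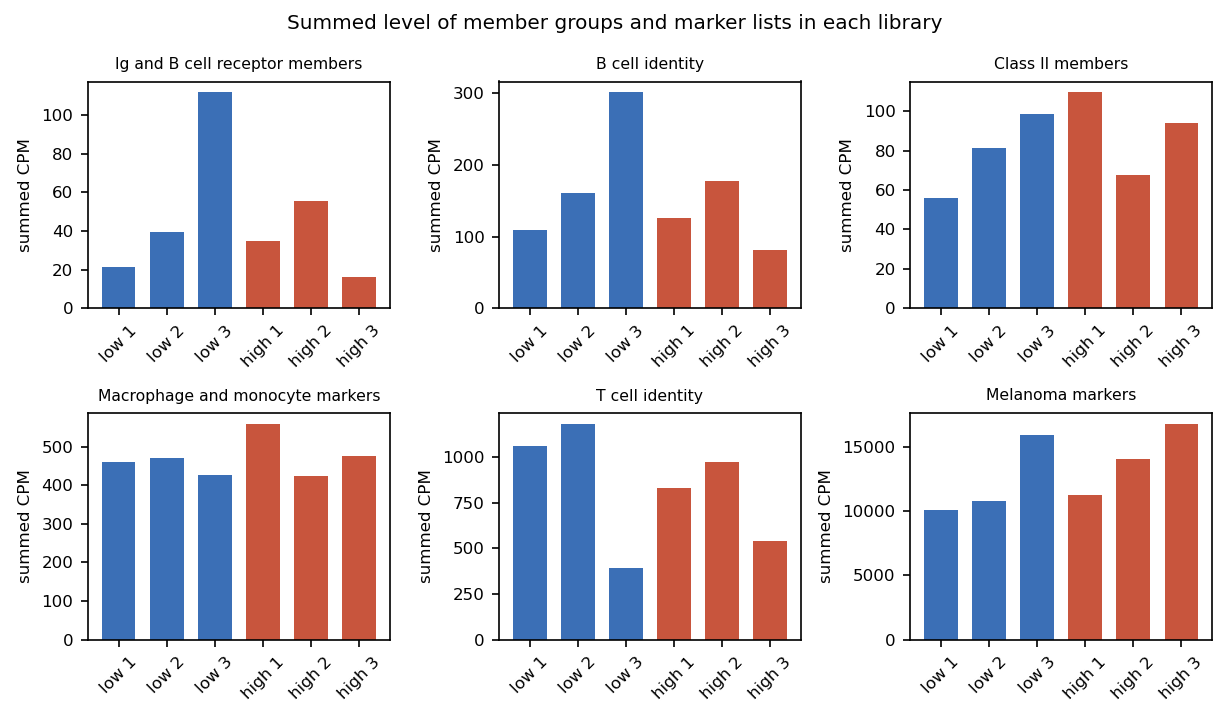
Bars give the summed TMM-scaled CPM of the 5 immunoglobulin and B cell receptor members, the 4 class II members and 4 marker lists in each library (blue, L-Pha low; red, L-Pha high), each panel with its own linear axis from 0. The B cell sums peak in L-Pha low 3, where the T cell sum is lowest at 394 CPM.

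Summed over the 5 immunoglobulin and B cell receptor members, the libraries had 66, 113 and 300 counts in L-Pha low 1, 2 and 3 and 131, 184 and 48 counts in L-Pha high 1, 2 and 3. As a share of all counts this was 0.0115% in L-Pha low 3 (exact Clopper-Pearson 95% interval 0.0102% to 0.0129%), whereas L-Pha high 3 had 0.00170% (0.00126% to 0.00226%), intervals that cover counting error only. On the CPM scale the sums were 111.9 and 16.0 in those libraries, a 6.995-fold difference, while L-Pha high was 1.63-fold and 1.41-fold above L-Pha low among the libraries numbered 1 and 2. The 4 class II members differed 1.96-fold between their highest and lowest library. L-Pha low 3 and L-Pha high 3, the highest and the lowest library for these sums, had the lowest T cell sums. The part of cell composition in the B cell sums was not tested. The labels do not state what the numbers 1 to 3 stand for.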

How the data were processed

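Counts per gene were deposited by the authors as whole read counts from featureCounts 1.5.0-p3 and Ensembl release 78 on GRCm38, per the file headers; reads were counted on the sense strand, at every alignment, and for every gene they overlapped. The submitters' processing notes list HISAT2 2.1.0 and cutadapt 1.7, and the human build hg19, which the mouse gene identifiers do not match. How the authors made the deposited log2 values is not given in the sources used here; they served for 1 alternative. Symbols came from GENCODE M21 (97.3% of identifiers). All 6 libraries entered 1 edgeR 4.0.16 fit over 11183 genes (TMM, filterByExpr, quasi-likelihood F test, group as the only term) in R 4.3.3, with Benjamini-Hochberg adjustment over all of them; the test was checked on simulated counts. SE is the log2 fold change over the root of F. DESeq2 1.42.0 and limma 3.58.1 (voom) were alternatives, with others on scaling, filtering and left-out libraries. Reads are not independent molecules.

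The members, the 8 gene lists (154 of 159 symbols matched, members included) and the tests were chosen with earlier results of these data known. Named genes were all members, the 4 of each list with the smallest p, defining markers, and for each tested member the 3 genes closest in pattern; other list genes named were chosen after their values were seen. Of the genes this rule names, 2 are not reported here.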

Additional observations from a re-analysis of the deposited data

How the results depend on the processing

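For the 6 tested members, 0 of 15 alternatives gave an adjusted p under 0.05, with lowest adjusted p-values of 0.252 for Ighm, 0.462 for Ms4a1, 0.939 for Cd74, 0.773 for H2-Aa, 0.456 for H2-Ab1 and 0.536 for H2-Eb1. With 1 library left out the log2 fold change ran from -1.41 to -0.32 for Ighm, -0.81 to 1.04 for Ms4a1, -0.45 to 0.00058 for Cd74, 0.03 to 0.29 for H2-Aa, 0.30 to 0.81 for H2-Ab1 and -0.0014 to 0.60 for H2-Eb1. For the log2 ratios of mean CPM it ran from 0.28 to 3.16 for Igkc, -0.91 to 1.01 for Cd79a and -1.78 to -0.47 for Cd79b. Ms4a1 also changed sign with a replicate block (0.022), with limma-voom (0.082) and with the deposited log2 values in limma (0.051). Without both libraries numbered 3, chosen after seeing the data, Ms4a1 was 1.38, Cd79a 1.47 and Cd74 0.092.

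Libraries with the same number correlated in their deviations at 0.348, 0.0813 and 0.45, and libraries with different numbers at -0.423 to 0.117. Each L-Pha high library correlated best with the L-Pha low library of its number. L-Pha low 2, however, correlated best with L-Pha high 1, at 0.117. The main fit had no block because the labels state no pairing. Whether the libraries are pairs was not tested. Over all genes edgeR called 0 higher and 1 lower; the numbers were 20 and 23 with the replicate block, 20 and 27 with no filter on low counts, and 7 and 20 with DESeq2. Lower calls were 0 with library totals alone, limma-voom or without both libraries numbered 3, and with 1 library left out there were 0 to 1 higher and 0 to 7 lower. Scaling by library totals moved the median of all genes to 0.10.

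List medians moved beyond their spread for plasma cell genes (-0.56 with no filter, -0.57 with DESeq2), dendritic cell markers (-0.025 and -0.039, and 0.11 to 0.36 with 1 library left out) and interferon gamma genes (-0.16 with library totals, -0.40 without both libraries numbered 3, and -0.42 to -0.17 with 1 library left out). The B cell identity median was -0.73 with no filter, -0.79 with DESeq2 and -0.083 with limma-voom. The T cell median turned positive with library totals (0.011), the replicate block (0.011), limma-voom (0.028) and the deposited log2 values in limma (0.061). It was also positive without L-Pha low 1 (0.055), L-Pha low 2 (0.17) or L-Pha high 3 (0.048). With no filter and with DESeq2, genes with few counts enter the lists, so those medians cover more genes. The count filter was also rerun with each library left out, so the tested genes can differ there too. Without L-Pha low 1, for instance, 7 members were tested, against 6 in the main fit. The cause of moves outside the no-filter and DESeq2 settings was not tested. Few counts limit Igkc, Cd79a and Cd79b.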

Other observations

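Interferon gamma induces class II genes in many cells, and its target genes were lower in point value in L-Pha high for 14 of 18 tested list genes. Of all 11183 tested genes, 5674 were lower. The median difference of the list was -0.28 on the log2 scale. edgeR, DESeq2 and limma-voom called 0 of them, with 1 at an unadjusted p under 0.05 by each, against 3.78% of all tested genes by edgeR. Igtp, a GTPase of cell-autonomous defence, had the smallest p, averaging 18.5 ± 1.47 CPM against 34.7 ± 13.8 CPM for L-Pha low (SD over 3 libraries), a log2 difference of -0.90 (SE 0.309) at an edgeR adjusted p of 0.988. Socs1, an inhibitor of cytokine signalling, had a log2 fold change of -0.73 (SE 0.427), Cd274, which encodes PD-L1, one of -0.66 (SE 0.434), and Irgm2 one of -0.43 (SE 0.289). The 3 class II chain genes had higher point values in L-Pha high than in L-Pha low, opposite to most of these targets. With L-Pha high 1 left out, H2-Eb1 was at -0.0014 on the log2 scale. Other class II genes, Cd74 (log2 fold change -0.17), H2-DMa (-0.70) and Ifi30 (-0.51), were lower in L-Pha high, as most targets were. Of the 13 tested genes of the class II pathway list, 7 were higher and 6 lower. The difference between the chain genes and the targets was not tested.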
